A study of Mus musculus with 6 samples.

Results

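Cholesterol genes were followed in lymphoma B cells of Eµ-Myc mice, which carry a Myc transgene under the immunoglobulin heavy chain enhancer and develop B cell lymphoma. The genes form a list of 30 covering control by sterol regulatory element binding proteins (SREBP control, 5 genes), synthesis (16), uptake, transport and storage (5), and efflux with its liver X receptors (LXR, 4). They were matched by symbol to an RNA-seq table of 21448 genes, and 29 of the 30 were found. Hmgcs1, a cytosolic synthase of the mevalonate pathway, had no matching row and is not analysed here. The rule for the list is pathway role, and it was proposed with results of these data known.

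The study holds 3 libraries labelled PRDM15 KO and 3 labelled wild type, all from primary lymphoma B cells of the E mu-Myc transgenic strain. Per the labels' protocols, deletion of Prdm15 was induced with OHT at 50 nM, ethanol served as the control, exposure lasted 24 hours, and cells were collected 3 days later from medium containing IL7. That protocol is the same text for all 6 libraries, and the labels do not say which libraries received OHT and which ethanol. Both groups share the Myc transgene and the culture; if the treatments follow the genotype labels, OHT exposure and deletion cannot be told apart. The labels name neither the Cre nor the floxed allele, give no ages, and tie no library to a mouse. The series' design text calls the libraries biological replicates, and a p-value here reflects the spread among these 6 libraries, part of which may be technical.

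Cells make cholesterol from acetyl-CoA through mevalonate, farnesyl diphosphate, squalene and lanosterol. When sterols are scarce, SCAP escorts the SREBP proteins from the endoplasmic reticulum to the Golgi, where they are cleaved into transcription factors that switch on the synthesis enzymes; when sterols are plentiful, the INSIG proteins hold SCAP back. When sterols are in excess, oxysterols activate the LXR receptors, which induce the efflux pumps ABCA1 and ABCG1. Dividing B cells draw on this pathway for new membrane.

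The libraries held 28852951 to 47255421 reads assigned to genes, and a single read was worth 0.0214 to 0.0333 units. All levels below are on the CPM scale, read counts over an effective library size, which are not divided by gene length, so they are compared between libraries and not between genes. A row of 3 values belongs to replicate numbers 1, 2 and 3. Prdm15 itself was at 40.2, 40.9 and 39.2 in the labelled knockout libraries, against 29.2, 47.3 and 41.3 in wild type. These values cover the whole gene and the labels do not give the deleted stretch, so every direction below rests on the labels. The B cell markers Cd79a (187, 186 and 229.7 in the labelled knockout libraries, against 185, 179 and 269 in wild type) and Pax5 were present in every library. The summed level of 20 myeloid markers was 229, 2582 and 1402 in the labelled knockout libraries, against 246, 313 and 269 in wild type. Labelled knockout libraries 2 and 3 thus stand apart in myeloid transcripts, and labelled knockout library 1 does not. Sums of T cell markers were low but higher at every number, at 4.39, 24.8 and 7.47 in the labelled knockout libraries, against 1.68, 2.28 and 1.26 in wild type, with 7, 8 and 7 of 8 markers higher. NK marker sums were 5.26, 3.59 and 1.61 in the labelled knockout libraries, against 4.57, 0.677 and 0.899 in wild type, and erythroid sums reached at most 1.50. The part of these cell types in the results below was not tested. Stromal and endothelial sums were 52.5 to 102.8 and came mainly from Pecam1 (61.9, 54.2 and 101 in the labelled knockout libraries, against 50.2, 51.0 and 62.1 in wild type), while Col1a1 was under 1 in every library. No defining marker of these lists was at 0 in all 6 libraries.

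Most synthesis enzymes were lower in the labelled knockout libraries, the SREBP genes Srebf1 and Srebf2 lay below wild type without overlap, and the storage gene Soat1 and the efflux gene Abca1 were high only in the 2 labelled knockout libraries with many myeloid transcripts. The enzymes Fdps, Lss and Pmvk fell, by 0.73, 0.75 and 0.64 on the log2 scale. With the replicate number in the limma fit, these 3 of 29 members passed as lower, where 0.741% of the 10533 tested genes did, and 0 passed as higher, where 0.133% did. Without the replicate number 0 members passed (0.00949% of tested genes did), with 12 at an unadjusted p under 0.05, against 428 of the 10533 tested genes, and a lowest adjusted p of 0.150. In 13 members every labelled knockout library lay below every wild type library, against 6.29% of tested genes, and in 0 members did every one lie above, against 3.21%. In 18 of 29 members the labelled knockout library was lower at all 3 replicate numbers, against 29.9% of tested genes. Unless stated otherwise, the SE and adjusted p below are those of the limma fit with the replicate number. The median log2 change was -0.37 over the members and -0.028 over all tested genes.

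Other tests and left-out libraries moved these counts. In the fit with the replicate number, edgeR called 0 members (0.323% of tested genes were called lower and 0.0475% higher), with 21 at an unadjusted p under 0.05, against 2174 of all tested genes, and a lowest adjusted p of 0.0516. DESeq2 called 10 members lower (3.99% of tested genes) and 1 higher (3.02%), and without the replicate number it called 4 lower (0.75%). Without the pair of libraries numbered 1, limma called 13 members lower (3.36% of tested genes) and 4 higher (4.61%). The 4 are Npc1, Soat1, Abca1 and Nr1h3; this fit keeps only the labelled knockout libraries with myeloid sums of 2582 and 1402, through which alone Nr1h3 passed the filter on low values. Without the pair numbered 2 or the pair numbered 3, limma called 0 of all 10533 genes, so its 0 members say nothing particular about the members. At an unadjusted p under 0.05 were then 18 and 17 members, against 1415 and 1240 of all tested genes. In bulk RNA, fewer cells of a type and less RNA per cell cannot be told apart.

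**Figure D1:**
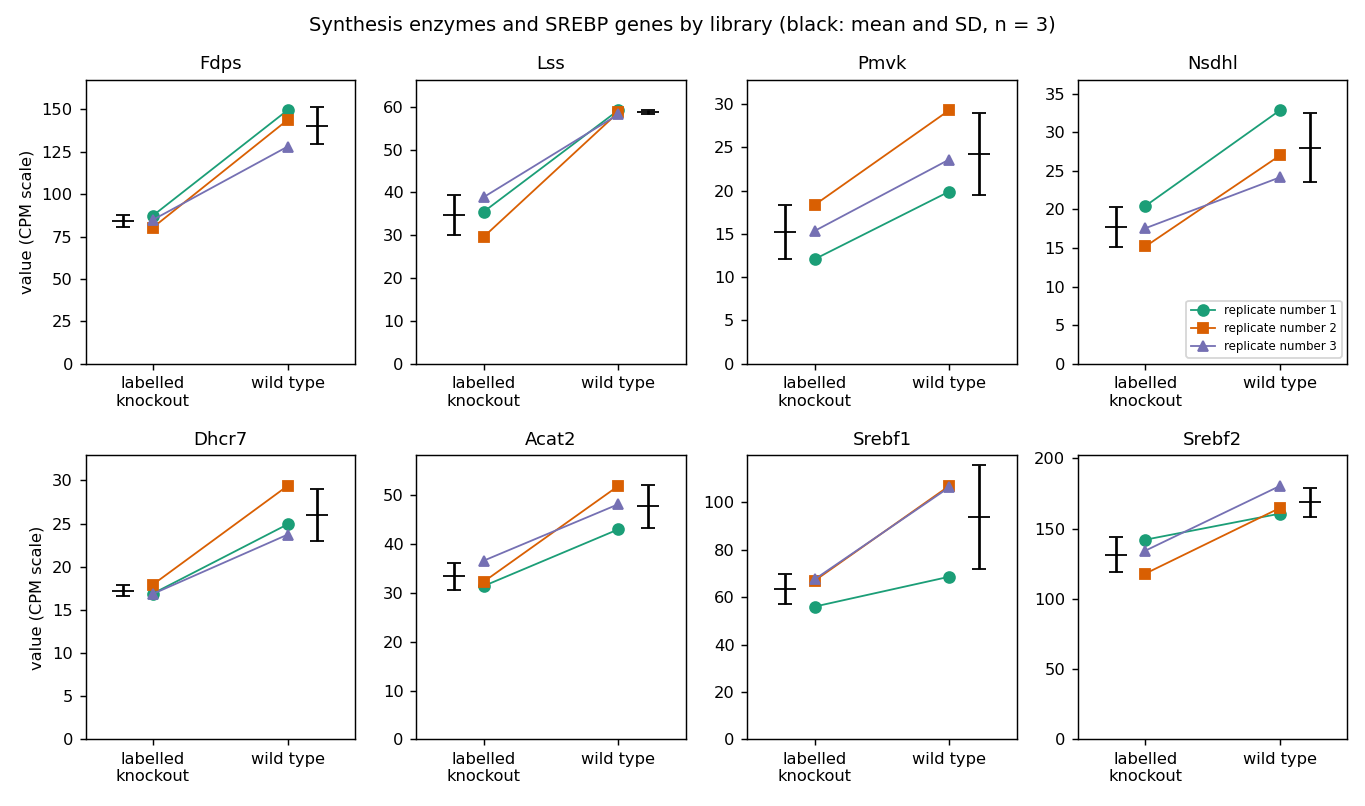
Level of 6 synthesis genes and the 2 SREBP genes (vertical axes from 0, CPM scale) in each labelled knockout and wild type library; lines join equal replicate numbers, and the mean with its SD (n = 3) is drawn in black. For each of the 8 genes every labelled knockout library lies below every wild type library, as for Fdps with 80.3 to 87.3 in labelled knockout against 128 to 149.5 in wild type.

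Control of the pathway was examined first. Srebf2 encodes SREBP2, the main activator of cholesterol synthesis genes. Its level was 142, 118 and 134 in the labelled knockout libraries and 161, 165 and 180.4 in wild type. The groups did not overlap, and the gap was narrowest at number 1. The log2 change was -0.36 (SE 0.074, limma adjusted p = 0.115 with the replicate number), which did not pass; DESeq2 with the replicate number called it (adjusted p = 0.0116).

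Srebf1 encodes SREBP1, whose forms act more on fatty acid genes. It was at 56.0, 66.9 and 67.5 in the labelled knockout libraries and 68.6, 107 and 106 in wild type. The labelled knockout libraries were alike, whereas wild type library 1 was well below the other wild type libraries and only 0.29 above its partner on the log2 scale. The log2 change of -0.54 (SE 0.091) did not pass limma (adjusted p = 0.0808) and passed DESeq2 (adjusted p = 0.000612), both with the replicate number.

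The sterol sensor genes had no common pattern. Scap, the escort, stood at 150.2, 227 and 229 in the labelled knockout libraries, against 139.6, 201 and 197 in wild type. It was slightly higher at every number, while its level followed the number far more than the label (log2 change 0.16, SE 0.050, adjusted p = 0.179). Insig1, the retention protein whose own gene is an SREBP target, was at 129, 68.4 and 77.4 in the labelled knockout libraries and 149, 132 and 94.7 in wild type. The groups overlapped, and the log2 differences were -0.21, -0.93 and -0.29 at numbers 1, 2 and 3 (adjusted p = 0.187). Insig2, the relative that depends less on SREBP, was at 8.75, 9.94 and 8.89 in the labelled knockout libraries and 8.68, 9.95 and 10.9 in wild type, with overlap (log2 change -0.087, adjusted p = 0.667). Scap was the only SREBP control gene with a positive log2 change. Without labelled knockout libraries 2 and 3, Scap turned to -0.24 and Insig1 to 0.066. That fit has no replicate number and sets labelled knockout library 1 against wild type libraries of all numbers. Within number 1 the log2 differences were 0.10 for Scap and -0.21 for Insig1.

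In synthesis, 15 of 16 listed enzymes had a row. Of these 15, 14 had a negative log2 change, against 6008 of the 10533 tested genes. At numbers 1, 2 and 3, 13, 14 and 14 of the 15 were lower in the labelled knockout library. At all 3 numbers 12 were lower, against 29.9% of tested genes. For 11 the groups did not overlap, with labelled knockout below, against 6.29% of tested genes. The median log2 change was -0.39, and -0.38, -0.55 and -0.28 at numbers 1, 2 and 3. It lay between -0.39 and -0.34 under 5 scalings of the libraries. At number 1 the myeloid sums were 229 in labelled knockout and 246 in wild type. Of 20 myeloid markers, 6 were higher in labelled knockout there, while Lyz2 was at 10.7 against 20.4 in wild type. Without labelled knockout libraries 2 and 3 the synthesis median was -0.41. The part of the myeloid transcripts in these medians was not tested.

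The farnesyl diphosphate synthase gene Fdps (ENSMUSG00000059743) makes the last isoprenoid shared by sterols and protein prenylation. It was at 87.3, 80.3 and 84.8 in the labelled knockout libraries and 149.5, 144 and 128 in wild type. The 2 groups were far apart relative to their spread, with means of 84.1 ± 3.56 in labelled knockout and 140.4 ± 11.1 in wild type (SD, n = 3 each), so that labelled knockout was at 59.9% of wild type. The log2 change was -0.73 (SE 0.066, limma adjusted p = 0.0313 with the replicate number and 0.150 without; edgeR 0.0516 and DESeq2 2.88e-12 with it). In the fits with the replicate number it passed under all 5 scalings. It also passed DESeq2 without the replicate number (adjusted p = 6.72e-05).

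Lanosterol synthase, encoded by Lss (ENSMUSG00000033105), folds squalene epoxide into the first sterol. Its level was 35.5, 29.6 and 38.9 in the labelled knockout libraries, against a very narrow 59.2, 58.7 and 58.2 in wild type. The labelled knockout mean was 59.0% of the wild type mean, and labelled knockout library 2 was lowest. The log2 change was -0.75 (SE 0.090, limma adjusted p = 0.0430 with the replicate number and 0.232 without; edgeR 0.0671 and DESeq2 1.14e-06 with it). With the replicate number it passed as deposited and under quantile scaling, and it did not pass with equal totals, TMM or DESeq2 size factors.

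Phosphomevalonate kinase, encoded by Pmvk (ENSMUSG00000027952), adds the second phosphate to mevalonate. Values of 12.1, 18.3 and 15.3 in the labelled knockout libraries stood against 19.9, 29.3 and 23.6 in wild type. Both groups ran in the same order of replicate number, lowest at 1 and highest at 2, and the log2 differences within numbers were the most even of the 3 called genes, at -0.68, -0.65 and -0.59. The log2 change was -0.64 (SE 0.071, limma adjusted p = 0.0414 with the replicate number; edgeR 0.0567 and DESeq2 0.000117), and it passed limma with the replicate number under all 5 scalings. Without the replicate number its SE was 0.21, and it did not pass.

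Promoter sequence is shown for the called genes that the RefSeq promoter table (build GRCm38.p6) holds and for the feedback genes Insig1 and Srebf2, since SREBP proteins bind sterol regulatory elements near such starts together with the CCAAT-binding factor NF-Y. Each is the 250 bases before the annotated start, all on the + strand, with capitals on CCAAT (or ATTGG on the other strand), CACGTG and TCACNCCA.
Pmvk (chr3:89454291-89454540): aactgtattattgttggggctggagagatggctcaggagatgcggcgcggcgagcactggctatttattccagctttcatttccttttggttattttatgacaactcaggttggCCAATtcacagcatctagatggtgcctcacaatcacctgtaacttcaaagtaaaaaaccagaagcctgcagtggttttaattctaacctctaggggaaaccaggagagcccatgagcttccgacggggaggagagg
Lss (chr10:76531355-76531604): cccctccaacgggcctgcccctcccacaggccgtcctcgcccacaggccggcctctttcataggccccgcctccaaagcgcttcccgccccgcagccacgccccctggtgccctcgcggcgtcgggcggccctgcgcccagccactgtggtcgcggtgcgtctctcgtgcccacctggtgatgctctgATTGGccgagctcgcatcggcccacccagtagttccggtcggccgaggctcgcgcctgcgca
Insig1 (chr5:28071162-28071411): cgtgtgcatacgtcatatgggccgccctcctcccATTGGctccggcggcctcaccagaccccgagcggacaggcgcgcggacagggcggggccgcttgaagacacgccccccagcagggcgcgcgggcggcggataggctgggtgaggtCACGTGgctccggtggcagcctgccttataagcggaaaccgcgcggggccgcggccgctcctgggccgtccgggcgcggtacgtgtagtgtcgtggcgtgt
Srebf2 (chr15:82147019-82147268): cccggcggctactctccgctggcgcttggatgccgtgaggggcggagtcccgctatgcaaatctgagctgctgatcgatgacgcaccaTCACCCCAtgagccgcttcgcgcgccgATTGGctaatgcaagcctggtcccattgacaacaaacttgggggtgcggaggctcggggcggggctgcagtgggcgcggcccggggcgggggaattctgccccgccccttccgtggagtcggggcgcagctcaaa

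Of the 29 genes, 23 were searched in that table (all but Fdps, Fdft1, Sqle, Stard4, Abcg1 and Npc1); a gene counts as holding a motif if any listed start does, on either strand. CCAAT stood in 18 of 23, and in 11 of 12 synthesis genes, against 37.5% of the 27025 genes of the table. Within 100 bases of the start it stood in 15 of 23, against 21.6%. The E-box CACGTG stood in 5 of 23 (Scap, Insig1, Hsd17b7, Dhcr7 and Abca1), against 6.86%, and within 100 bases in 1, Scap, against 3.70%. The strict sterol element TCACCCCAC, its looser form TCACNCCAC, which includes it, and the E-box TCACGTGA, which contains CACGTG, stood in 0 of 23, where 0.555%, 1.22% and 0.907% of all genes held them. Cut to TCACNCCA after the sequences had been seen, the looser form stood in 1, Srebf2, at 162 to 155 bases before the start, against 4.20% of all genes. The background was not limited to genes tested here, and a gene with more listed starts has more chances to hold a motif. These are letter matches in a short window and show no binding.

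Other enzymes of the mevalonate arm were lower without passing limma. Acat2, the thiolase that opens the pathway, was at 31.4, 32.3 and 36.6 in the labelled knockout libraries and 43.1, 52.0 and 48.2 in wild type (log2 change -0.50, SE 0.078, adjusted p = 0.0670). DESeq2 called it in both fits (adjusted p = 0.00280 with the replicate number and 0.0104 without). Mevalonate kinase, Mvk, stood at 12.1, 11.6 and 13.4 in the labelled knockout libraries, against 17.6, 15.3 and 16.4 in wild type (log2 change -0.38, SE 0.087, adjusted p = 0.134). For both genes the groups did not overlap. Acat2 has a close copy in the mouse, Acat3, and how reads of both were assigned is not stated, which leaves its level uncertain.

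The next mevalonate enzymes had the same pattern. Mvd, the decarboxylase that yields isopentenyl diphosphate, had 20.9, 19.0 and 19.8 in the labelled knockout libraries and 27.4, 27.5 and 23.1 in wild type (log2 change -0.37, SE 0.085, adjusted p = 0.134). Idi1, the isomerase that follows, had 44.9, 35.2 and 42.5 in the labelled knockout libraries and 58.5, 51.8 and 50.8 in wild type (log2 change -0.39, SE 0.076, adjusted p = 0.107). Neither gene's groups overlapped, and DESeq2 with the replicate number called Idi1 (adjusted p = 0.0273) and not Mvd (0.124).

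The squalene steps came next. Fdft1, squalene synthase, was at 34.5, 36.5 and 42.9 in the labelled knockout libraries and 40.6, 53.4 and 54.5 in wild type, and labelled knockout library 3 overlapped wild type library 1 (log2 change -0.37, adjusted p = 0.117). Sqle, the epoxidase and a control point of the pathway, was at 199, 153 and 212 in the labelled knockout libraries, against 215, 224 and 253 in wild type. Its groups just failed to overlap, and the log2 differences of -0.12, -0.55 and -0.26 were led by number 2 (SE 0.093, adjusted p = 0.173).

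After lanosterol, the enzymes parted into those whose groups did not overlap and those whose groups did. Cyp51, the first demethylase, was at 165, 115 and 159.9 in the labelled knockout libraries and 209, 204 and 194 in wild type (log2 change -0.48, SE 0.12, adjusted p = 0.137). Nsdhl, a dehydrogenase of the same demethylation, was at 20.5, 15.2 and 17.6 in the labelled knockout libraries and 32.9, 27.0 and 24.2 in wild type (log2 change -0.63, SE 0.092, adjusted p = 0.0590). Dhcr7, the reductase of the final step to cholesterol, was at 16.9, 17.9 and 16.9 in the labelled knockout libraries and 24.9, 29.4 and 23.7 in wild type (log2 change -0.56, SE 0.078, adjusted p = 0.0548). These 3 genes had no overlap between groups, missed the limma threshold and were called by DESeq2 with the replicate number (adjusted p = 0.0104, 0.00122 and 0.00237).

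The remaining post-lanosterol genes overlapped between groups. Hsd17b7, the ketoreductase of the demethylation, was the only synthesis gene with a positive log2 change, at 25.0 to 31.9 in the labelled knockout libraries and 20.4 to 31.1 in wild type; the change of 0.064 (adjusted p = 0.798) turned negative without labelled knockout library 3, without wild type library 1, or without the pair numbered 1. Ebp, the sterol isomerase, was at 34.6 to 42.2 in the labelled knockout libraries and 39.3 to 46.1 in wild type (log2 change -0.11, adjusted p = 0.477). Tm7sf2, a sterol reductase, was at 2.99 to 3.79 in the labelled knockout libraries and 2.51 to 5.44 in wild type (log2 change -0.11, adjusted p = 0.731).

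**Figure D2:**
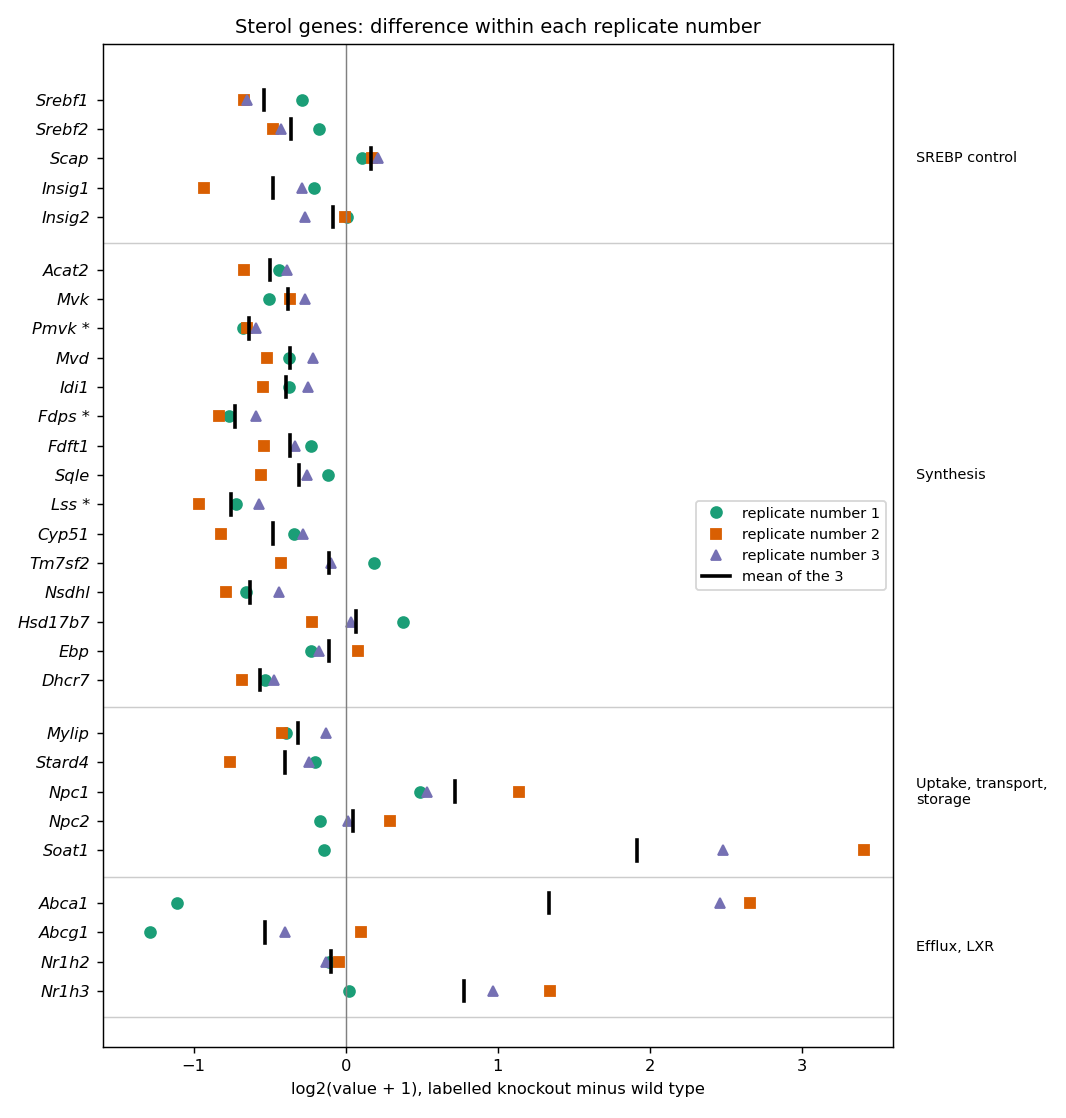
Log2(value + 1) of the labelled knockout library minus that of the wild type library of the same replicate number (horizontal axis), 1 symbol per number and a black bar for their mean, for 29 sterol genes grouped by role; an asterisk marks a limma adjusted p under 0.05 in the fit with the replicate number. The synthesis genes lie mostly between -0.96 and 0, whereas Soat1 and Abca1 lie above 2 at numbers 2 and 3 and below 0 at number 1.

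Genes of uptake, transport and storage had no common direction. Mylip encodes an E3 ligase that marks lipoprotein receptors for degradation and is itself an LXR target. It was at 22.1, 29.8 and 35.9 in the labelled knockout libraries and 29.4, 40.1 and 39.4 in wild type, lower at every number with overlap between groups (log2 change -0.31, SE 0.082, adjusted p = 0.148). Stard4, a cytosolic sterol carrier and SREBP target, was at 90.3, 112 and 87.0 in the labelled knockout libraries and 104, 190.5 and 103 in wild type. Wild type library 2 stood above the other 5, and the log2 change was -0.40 (SE 0.12, adjusted p = 0.176).

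The lysosomal exporters NPC1 and NPC2 hand cholesterol from lipoproteins to the rest of the cell. Npc1 was at 16.6, 65.9 and 45.7 in the labelled knockout libraries and 11.6, 29.4 and 31.3 in wild type. It was higher at every number (log2 differences 0.49, 1.14 and 0.53), and the part of the myeloid transcripts in this was not tested. The limma adjusted p was 0.113 with the replicate number, and DESeq2 with it called Npc1 (adjusted p = 0.000219), the 1 member it called higher. Against all wild type libraries, without the replicate number, labelled knockout library 1 gave a log2 change of -0.39, although it was 0.49 above its partner. Npc2 was at 193, 236 and 292 in the labelled knockout libraries and 217, 193 and 289 in wild type, with log2 differences of -0.17, 0.29 and 0.016 (adjusted p = 0.816).

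Soat1, which esterifies cholesterol for storage in droplets, was at 2.83, 61.0 and 33.7 in the labelled knockout libraries and 3.23, 4.84 and 5.22 in wild type. Labelled knockout libraries 2 and 3 were far above all others and labelled knockout library 1 was below every wild type library, so the log2 change of 1.91 carried an SE of 0.67 (adjusted p = 0.210). The order of the labelled knockout libraries was that of the myeloid sums. At number 1 the log2 difference was -0.15, and the part of the myeloid transcripts in the result was not tested.

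The efflux pump gene Abca1 had the same pattern across libraries. Its level was 0.998, 70.5 and 38.4 in the labelled knockout libraries and 3.31, 10.4 and 6.16 in wild type, from 30, 2811 and 1619 reads in labelled knockout and 124, 413 and 288 reads in wild type. Libraries 2 and 3 of the labelled knockout were above, and library 1 below, every wild type library (log2 differences -1.11, 2.66 and 2.46, adjusted p = 0.365). The myeloid markers Lyz2 and Csf1r had the same pattern, with Lyz2 at 10.7, 1471 and 820.3 in the labelled knockout libraries and 20.4, 124 and 86.0 in wild type. Csf1r was at 1.80, 72.3 and 42.2 in the labelled knockout libraries and 5.21, 7.39 and 10.6 in wild type. Of 20 myeloid markers, 6, 18 and 20 were higher in the labelled knockout library at numbers 1, 2 and 3, and 0 of the 16 tested passed limma in either fit.

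Abcg1, the second efflux pump, was not far above wild type in labelled knockout libraries 2 and 3, unlike Abca1. It was at 5.59, 57.9 and 36.2 in the labelled knockout libraries and 15.1, 54.0 and 48.0 in wild type, low at number 1 under both labels. The log2 differences were -1.29, 0.099 and -0.40, and the change of -0.53 did not pass (SE 0.26, adjusted p = 0.311). It turned to 0.41 without labelled knockout library 1, in a fit without the replicate number that kept the low wild type library 1. For Abca1, Soat1 and Npc1 labelled knockout libraries 2 and 3 exceeded every wild type library, and for Abcg1 only labelled knockout library 2 did.

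The LXR receptor genes differed from each other. Nr1h2, the widely expressed LXRβ, was at 72.4, 99.5 and 47.4 in the labelled knockout libraries and 78.2, 103 and 51.9 in wild type. Its level went with the replicate number almost entirely, and within a number the labelled knockout library was lower by at most 0.13 on the log2 scale (adjusted p = 0.351). Nr1h3, the LXRα of macrophages and liver, was at 0.366, 2.94 and 1.59 in the labelled knockout libraries and 0.347, 0.551 and 0.321 in wild type, from 11, 117 and 67 reads in labelled knockout and 13, 22 and 15 reads in wild type. It passed the filter on low values, a mean of at least 1, only through labelled knockout libraries 2 and 3, where the myeloid transcripts were high (log2 change 0.78, adjusted p = 0.241). All other members had a level of 0.998 or more in every library.

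**Figure D3:**
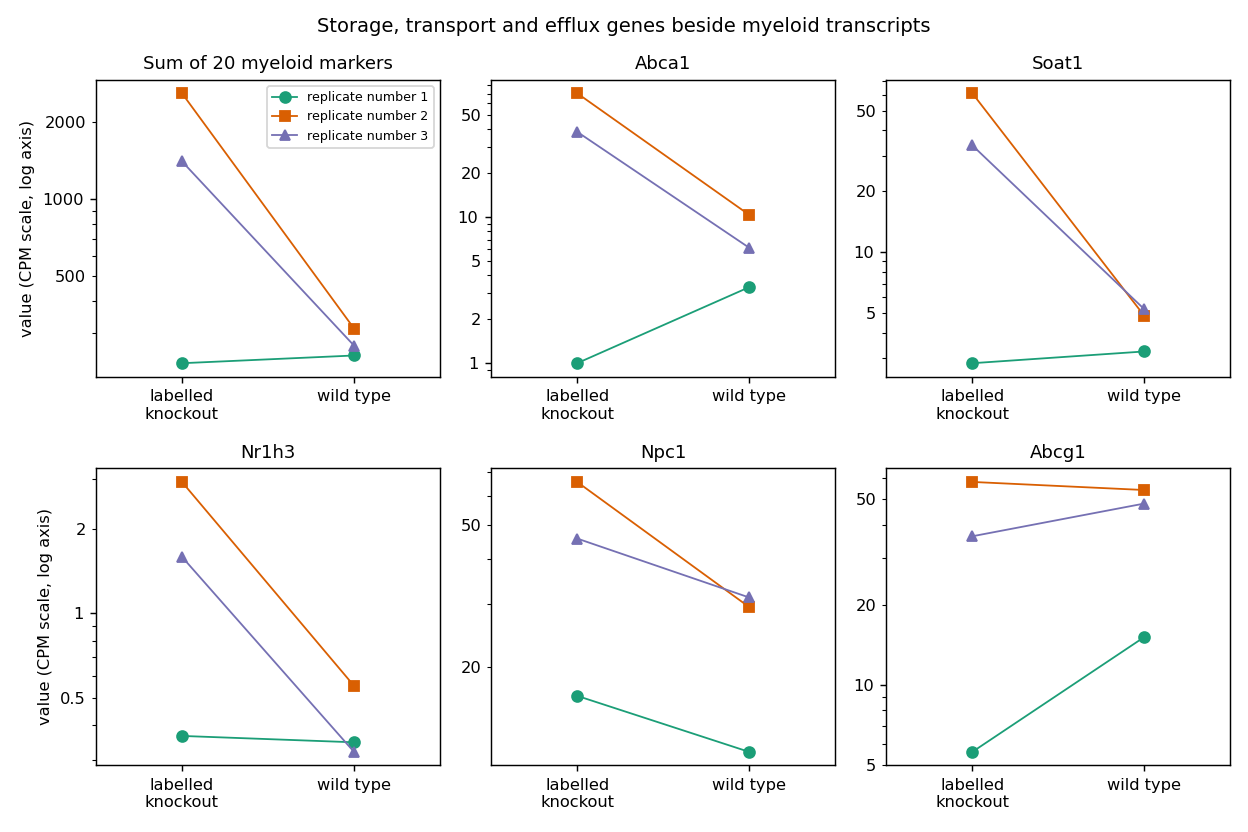
Summed level of 20 myeloid markers and levels of Abca1, Soat1, Nr1h3, Npc1 and Abcg1 (CPM scale, log axes with a range of their own in each panel) in each labelled knockout and wild type library, where a line connects equal replicate numbers. The myeloid sum is 229 in labelled knockout library 1 and 2582 and 1402 in libraries 2 and 3. Abca1, Soat1, Nr1h3, Npc1 and Abcg1 have the same order among the labelled knockout libraries.

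How far the level went with the label or with the replicate number was described step by step. The share of the sum of squares of log2 values that went with the label had a median of 71.9% in synthesis genes, 33.4% in SREBP control, 29.2% in uptake, transport and storage, 9.73% in efflux and LXR genes, and 9.56% over all tested genes. The share that went with the replicate number was 18.8%, 50.6%, 65.2% and 75.3% in those steps, and 74.5% over all tested genes. Fdps and Lss were at the one end, with 95.9% and 91.8% by label, and Nr1h2 at the other, with 98.6% by number. Genes of different steps overlapped, with 2.32% by label for Hsd17b7 in synthesis and 14.1% for the efflux gene Abca1. Nr1h3 had 42.8% by label, but it passed the filter on low values only through labelled knockout libraries with many myeloid transcripts. The filter thus favours a large share by label for Nr1h3, and no conclusion is drawn from it. The efflux and LXR median of 9.73% includes Nr1h3. No difference between steps was tested.

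**Figure D4:**
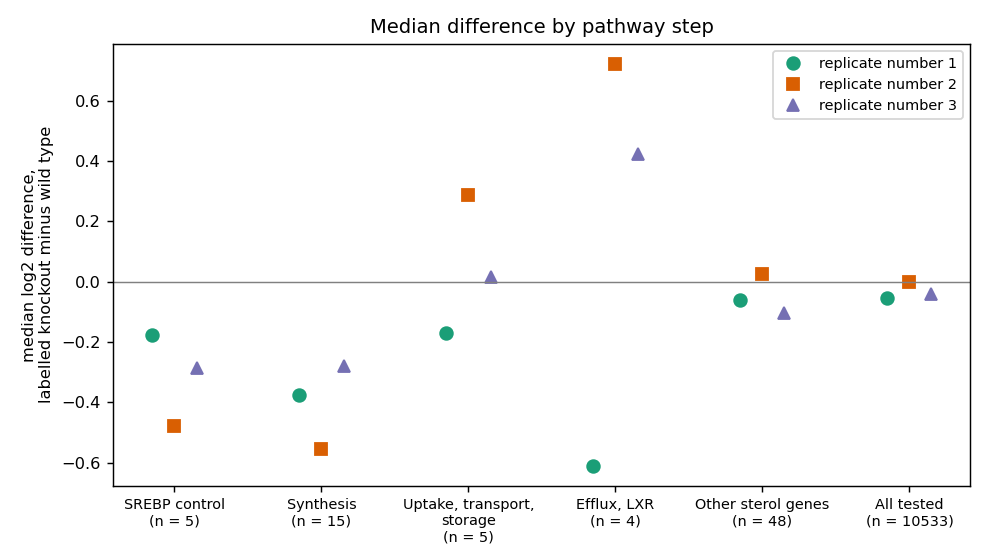
Median log2 difference, labelled knockout minus wild type, at each replicate number (vertical axis) for the 4 pathway steps, 48 other sterol genes and all 10533 tested genes. Synthesis lies at -0.38, -0.55 and -0.28 at numbers 1, 2 and 3, and efflux with LXR genes at -0.61, 0.72 and 0.42.

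The efflux and LXR median of 0.34 over all libraries rests on 4 genes, of which Nr1h3 passed the filter only through labelled knockout libraries 2 and 3. It was -0.094 with a minimum mean of 5, which drops Nr1h3, 0.094 with a pseudocount of 5, -0.0071 without labelled knockout library 2 and -0.93 without labelled knockout libraries 2 and 3, and so supports no direction. For uptake, transport and storage the median was 0.045 over all and -0.48 without them. Neither step held its sign across the replicate numbers, whereas the SREBP control medians (-0.18, -0.48 and -0.29) and the synthesis medians did.

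A list of 58 further sterol genes, none of them among the 30, was examined for breadth, and 57 had a row. Of the 48 tested, 0 passed limma in either fit, with 3 at an unadjusted p under 0.05 without the replicate number and 14 with it, against 428 and 2213 of the 10533 tested genes. With the replicate number edgeR called 0, against 0.323% of tested genes lower and 0.0475% higher. DESeq2 with it called 3 lower (Abca2, Scarb1 and Msmo1), against 3.99% of tested genes, and 3 higher (Osbpl8, Scarb2 and Rxra), against 3.02%. Of these, Rxra, a partner of the LXR receptors, was at 0.632, 11.4 and 5.76 in the labelled knockout libraries and 0.561, 0.827 and 0.685 in wild type, so it passed the filter on low values only through labelled knockout libraries 2 and 3, where the myeloid transcripts were high, and its call is no support for a difference. The median log2 change of the 48 was -0.032, against -0.028 over all tested genes. Of the 48, 17 were lower at all 3 numbers (35.4%), against 29.9% of tested genes. The remaining 9 had a mean under 1.

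The further genes with the smallest p in the fit with the replicate number came from several roles. Msmo1, an oxidase of the sterol demethylation, was at 80.1, 59.8 and 86.4 in the labelled knockout libraries and 102, 93.4 and 98.2 in wild type (log2 change -0.39, adjusted p = 0.141). Scarb1, a receptor for high-density lipoprotein, was at 41.6, 46.1 and 40.4 in the labelled knockout libraries and 56.9, 66.2 and 48.5 in wild type (log2 change -0.40, adjusted p = 0.0852). Both lay below wild type without overlap, as did Tmem97, a sterol-regulated membrane protein, at 103, 96.5 and 90.4 in the labelled knockout libraries and 127, 106 and 103 in wild type (log2 change -0.21, adjusted p = 0.151).

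The other 3 genes overlapped between groups. Abca2, a lipid transporter of the lysosome, was at 26.3, 35.8 and 21.3 in the labelled knockout libraries and 37.3, 49.2 and 26.4 in wild type (log2 change -0.41, adjusted p = 0.0808). Lpcat3, an LXR-induced phospholipid acyltransferase, was at 21.9, 24.7 and 25.5 in the labelled knockout libraries and 25.3, 37.2 and 35.1 in wild type (log2 change -0.41, adjusted p = 0.132). Osbpl8, a lipid exchanger of the endoplasmic reticulum, was the only one of the 6 with a positive log2 change, at 194, 405 and 507 in the labelled knockout libraries and 170.1, 314 and 388 in wild type (log2 change 0.32, adjusted p = 0.104).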

How the data were processed

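Per the submitters' processing notes, the build was mm9 and the tools included HTSeq, edgeR, STAR 2.4.2a and CASAVA, listed with no role or order; libraries were directional, per the labels' protocols. Which annotation and strand setting the authors used is not given in sources used here. The deposited values are a signal: within each library all are whole multiples of a single step (100% within 0.01 reads), so they are reads over an effective library size (0.970 to 1.04 times the total) and not FPKM, the table's name. The design had assumed FPKM.

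Values were analysed as log2(value + 1) with limma 3.58.1 (trended prior, two-sided) on 10533 genes with a mean of at least 1, with Benjamini-Hochberg adjustment over all of them and a threshold of 0.05. The main fit had no replicate number. Fits with the number as a block, edgeR 4.0.16 (quasi-likelihood) and DESeq2 1.42.0 on the recovered reads were alternatives, run in R 4.3.3 after a check on simulated data. Deviations from group means correlated at 0.73, 0.73 and 0.84 between libraries of equal number, so the numbers were taken as pairs, although the labels name no shared animal. "Rose" and "fell" require a limma adjusted p under 0.05 in either fit. No 2 libraries of a group agreed within counting noise (chi-square per degree of freedom at least 85.8). Reads are not independent molecules, so counting error understates the spread.

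Members, steps and lists were chosen with earlier results of these data known. Genes named in full are members past either fit or without overlap between groups, the regulators and efflux genes, and the 6 further genes with the smallest p. Fdft1, Stard4, Npc1, Npc2 and Soat1 were added after their values were seen, as was the motif TCACNCCA. Gene coordinates are of GRCm38.p6 and belong to the RefSeq promoters only. Plots used Python 3.11.15 and matplotlib 3.10.9.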

Additional observations from a re-analysis of the deposited data

How the results depend on the processing

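Members called lower numbered 0 in limma without the replicate number and 3 with it as a block, where 1 and 78 of the 10533 tested genes were. DESeq2 called 4 without the block and 10 with it, where 0.75% and 3.99% of tested genes were called lower. Blocked limma called 2 with equal totals, 2 with TMM, 2 with DESeq2 size factors and 3 with quantile scaling, where 61, 61, 60 and 96 of the 10533 tested genes were called lower. Members called higher were 0 in limma and 1 in blocked DESeq2, where 3.02% of tested genes were called higher. Of the 48 further sterol genes tested, blocked DESeq2 called 3 lower and 3 higher, against 3.99% and 3.02% of all tested genes. With 1 library or 1 pair left out, members called lower ranged from 0 to 13 and higher from 0 to 4. Further genes called lower ranged from 0 to 4 and higher from 0 to 6. The upper ends came without the pair numbered 1, where 3.36% of tested genes were called lower and 4.61% higher. The cause was not tested. Fits with 2 pairs have few degrees of freedom.

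Medians within replicate number 1 were -0.18 for SREBP control, -0.61 for efflux and LXR genes and -0.23 for all members. Without labelled knockout libraries 2 and 3 they were -0.48 for uptake, transport and storage, -0.93 for efflux and LXR genes and -0.24 for the further genes. That fit has a lone labelled knockout library, assumed to vary like the wild type ones. It has no replicate number, so differences between numbers enter its log2 changes. In it the sign turned for Scap (-0.24), Insig1 (0.066), Npc1 (-0.39), Npc2 (-0.25), Soat1 (-0.48), Abca1 (-1.82) and Nr1h3 (-0.039). Within number 1 it turned for Insig2 (0.0099), Tm7sf2 (0.19), Npc2 (-0.17), Soat1 (-0.15) and Abca1 (-1.11), while Scap, Insig1, Npc1 and Nr1h3 kept their sign. Over the fits without 1 library or pair, log2 changes ranged from -0.0075 to 0.36 for Scap, -0.17 to 0.0039 for Insig2, -0.32 to 0.12 for Tm7sf2, -0.12 to 0.21 for Hsd17b7, -0.11 to 0.21 for Npc2, -1.17 to 0.41 for Abcg1 and -0.35 to 0.18 for Nr1h2; within them, Tm7sf2 was at 0.046 and Npc2 at -0.077 without the pair numbered 2, and Hsd17b7 at -0.092 without the pair numbered 1. These ranges mix fits without 1 library, which have no replicate number and unbalanced numbers, with fits without a pair, which have it. For genes whose level followed the number, such as Scap and Nr1h2, the ranges include that imbalance. Within every number Scap was higher and Nr1h2 lower in labelled knockout. No member changed sign under the pseudocounts 0.25 and 5, the filters or the scalings tried. In the 100-base window CACGTG stood in 1 of the 23 members searched, against 3.70% of all genes. With 11 to 117 reads, Nr1h3 is the member that depth limits most.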
